A study of Homo sapiens with 6 samples.

Results

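The MHC class I presentation genes described here are 9 genes, taken by symbol from GENCODE release 29 on primary chromosomes: HLA-B, HLA-C, HLA-E, HLA-F, B2M, TAP1, TAP2, TAPBP and NLRC5. They were 9 of 58780 human genes in the tables, and all 9 were among the 19725 genes with enough reads to test. They had been listed as GC-rich genes with short introns. The annotation places 5 of the 9 in both the top GC quartile and the shortest intron quartile, and B2M in neither.

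RNA-seq was run on HCT116, an established human colorectal carcinoma line. The 2 groups were cells given auxin for 16 h and cells given DMSO, the solvent, as control, with 3 biological replicates each. Auxin is a plant hormone with which a degron-tagged protein can be removed from cultured cells. The labels name neither the protein that auxin acts on nor the clone, the tagged allele or any other modification that both groups would share.

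Expected counts, which are estimated reads per gene, summed to between 234035407 and 625892507 a library, and replicate 1 was the deeper one in both groups (at least 546126805, against at most 284297251 in replicates 2 and 3). The smallest count of any of the 9 genes in a library was 118. Levels are given as CPM, where TMM factors set the scale of each library, and a gene was called when its edgeR quasi-likelihood p, adjusted by Benjamini-Hochberg over all genes tested, was under 0.05. Of all genes, 26.9% were called lower after auxin and 25.4% higher. With upper-quartile factors in place of TMM, calls were 59.7% higher against 48.5% with TMM, and the median log2 fold change of all genes moved up by 0.12. Epithelial markers were those of the labelled line for EPCAM, KRT8, KRT18, KRT19 and CDH1, all 5 called higher after auxin, while VIL1, CDX1 and LGALS4 were at or near 0. Of 7 lymphocyte markers, 6 were under 0.1 CPM, and CD8A was called higher (0.578 to 0.797 CPM with DMSO, 3.82 to 4.11 with auxin). Of 6 myeloid markers, 3 were under 0.1 CPM and CD68 was called lower (57.9 to 64.1 CPM, then 17.5 to 20.8). Summed fibroblast markers were 3.21 to 5.33 CPM and then 1.55 to 3.55 CPM, and endothelial markers 0.234 to 0.297 and then 0.424 to 0.506. The part of these markers in the results was not tested. In whole cultures, fewer cells that express a gene and less RNA per cell cannot be told apart.

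MHC class I molecules show peptides from inside the cell to CD8 T cells and to natural killer cells. A heavy chain (HLA-B, HLA-C, HLA-E or HLA-F here) pairs with the invariant light chain beta-2 microglobulin, the product of B2M. The TAP1 and TAP2 proteins form the transporter that carries peptides from the cytosol into the endoplasmic reticulum, tapasin (TAPBP) tethers empty class I molecules to it, and NLRC5 is a transcriptional coactivator of class I genes.

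Of the 9 genes, 8 were called lower after auxin and 0 higher, beside 26.9% of all genes and 33.4% of protein-coding genes called lower. With GC-corrected offsets 5 were called lower, and 4 in limma fits on log2(TPM + 1). In the same 8 genes every auxin library was below every DMSO library. Groups that did not overlap in either direction were found for 60.3% of all genes tested, so non-overlap was common in these data. B2M was the remaining gene, and its groups overlapped. The size of the change ran from a log2 fold change of -0.26 for TAP1 to -1.90 for HLA-F, beside a median of 0.02 over all genes.

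**Figure D1:**
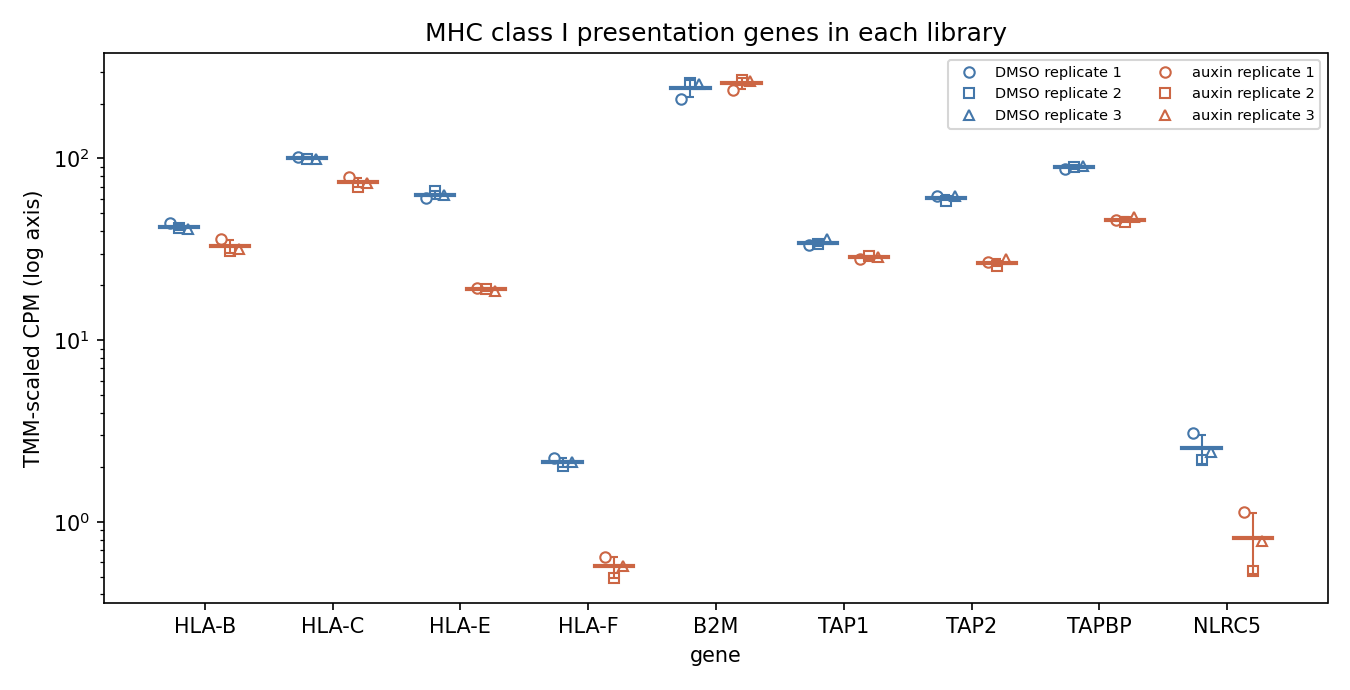
TMM-scaled CPM (log axis) of the 9 genes in each library, with DMSO in blue and auxin in orange. Symbols mark replicates, horizontal bars the mean and vertical bars the SD of 3 libraries. The auxin libraries lie below the DMSO libraries in 8 genes and overlap them in B2M.

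HLA-E, a heavy chain of low polymorphism that presents leader peptides of other class I molecules to natural killer cell receptors, was lower by more than any other heavy chain but HLA-F. It had 60.4, 66.4 and 62.7 CPM in DMSO replicates 1 to 3 and 19.5, 19.1 and 18.6 CPM in the auxin replicates. All 3 auxin libraries sat close together and far below the lowest DMSO library. The auxin mean was 30.1% of the DMSO mean (log2 fold change -1.73 ± 0.06 SE, edgeR adjusted p = 2.41e-06). HLA-E (ENSG00000204592.8) lies on chromosome 6 at chr6:30489467-30494205 of GRCh38, plus strand.

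HLA-F, a heavy chain of restricted expression that can reach the surface without peptide, was scarce in both groups. Its levels were 2.25, 2.02 and 2.14 CPM with DMSO and 0.644, 0.494 and 0.569 CPM with auxin. The highest auxin value was under the lowest DMSO value by a wide margin (log2 fold change -1.90 ± 0.15 SE, edgeR adjusted p = 5.05e-05). It lies at chr6:29722775-29738528, plus strand, and shares 535 exonic bases with HLA-F-AS1 on the opposite strand, which was itself lower (-0.43, from 1.32 to 0.981 CPM). Whether the authors' counting used the strand is not given in the sources used here, so reads of the pair may not be separated.

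The classical heavy chains HLA-B and HLA-C, which present peptides to CD8 T cells, were lower by less. HLA-B had 44.0, 41.6 and 40.7 CPM with DMSO and 36.2, 31.1 and 31.8 CPM with auxin (log2 fold change -0.35 ± 0.08 SE, edgeR adjusted p = 0.00666). HLA-C had 102, 99.7 and 99.95 CPM with DMSO and 78.7, 69.8 and 73.4 CPM with auxin (-0.44 ± 0.06 SE, edgeR adjusted p = 0.000729). In both genes auxin replicate 1 was the highest of its group and still under the lowest DMSO library. With offsets corrected for GC content the sign turned in both: the log2 fold change was 0.13 for HLA-B (edgeR adjusted p = 0.0689) and 0.12 for HLA-C (0.192). With that correction and the replicate number as a block, both were called higher (edgeR adjusted p = 0.00867 and 0.00702). The correction also removes any difference between the groups that genes of like GC content share. A value above 0 under it is relative to those genes and does not show that the RNA rose. HLA-B was also not called with upper-quartile factors (-0.23, edgeR adjusted p = 0.0709). HLA-B is annotated at chr6:31269491-31357188 and HLA-C at chr6:31268749-31272130, both on the minus strand, and they share 35 exonic bases. Heavy chain genes are similar in sequence and highly polymorphic, and reads may have been split among them or lost where the line's alleles differ from the reference.

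A sum of the 4 heavy chains does not depend on how reads were split among them. It stood at 209, 209.7 and 205.5 CPM with DMSO and at 135, 120 and 124 CPM with auxin, so all auxin libraries were lower. The log2 fold change of the sum was -0.72 ± 0.06 SE (edgeR adjusted p = 8.77e-05), and with the GC correction -0.32 (edgeR adjusted p = 0.004). Under that correction HLA-E was at -1.58 and HLA-F at -1.53, but HLA-B at 0.13 and HLA-C at 0.12. The lower sum thus does not show that each chain was lower. Its GC offset was the plain mean of those of the 4 genes, whatever their level. On log2(TPM + 1), limma gave -0.64 with an adjusted p of 0.0653, which missed the threshold.

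The makeup of the heavy chain pool, as shares of its summed TPM (abundance per transcript length), differed between the groups. The HLA-E share was 13.5%, 15.3% and 14.5% with DMSO and 6.39%, 7.15% and 6.998% with auxin. The HLA-F share had a mean of 1.40% ± 0.10 (SD, n = 3) with DMSO and 0.541% ± 0.06 (SD, n = 3) with auxin. The HLA-B share had means of 32.6% ± 0.63 and 37.8% ± 0.34 and the HLA-C share 51.6% ± 0.75 and 54.8% ± 0.49 with DMSO and auxin (SD, n = 3 each). None of the 4 shares overlapped between groups. Each had a two-sided exact permutation p of 0.1, the smallest that 3 against 3 libraries allow. Shares of 1 pool are not independent of each other. They are shares of gene TPM, which includes non-coding forms. In protein-coding forms alone, mean TPM went from 35.1 with DMSO to 21.5 with auxin for HLA-B and from 59.4 to 37.5 for HLA-C. It went from 25.9 to 6.64 for HLA-E and from 1.89 to 0.453 for HLA-F.

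Promoter sequence is shown for the classical heavy chain genes, because they moved together, from the RefSeq promoter table (GRCh38.p14, 250 bases before to 50 after the start). Of the 9 genes, 7 had an entry, and HLA-E and NLRC5 did not. The windows run 5′ to 3′ from base -185 to base -46 relative to the start. Capitals mark an interferon element of class I genes (AGTTTC, any 1 base, then CTT), CCAAT boxes on either strand, and TGACG, a site of the cyclic AMP response element kind. These motifs were chosen after the sequences had been seen.
HLA-B (chr6:31357225-31357364, minus strand): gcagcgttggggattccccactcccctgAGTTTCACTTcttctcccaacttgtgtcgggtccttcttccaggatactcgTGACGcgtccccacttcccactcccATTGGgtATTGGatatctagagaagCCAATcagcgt
HLA-C (chr6:31272138-31272277, minus strand): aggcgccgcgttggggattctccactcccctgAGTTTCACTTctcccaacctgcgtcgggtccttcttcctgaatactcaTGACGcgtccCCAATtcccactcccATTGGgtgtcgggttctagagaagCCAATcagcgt
The interferon element was found, searching both strands, in 3 of the 7 promoters (HLA-B, HLA-C and HLA-F) and in 0.453% of 35116 promoters of the same length. CCAAT was found in 5 of the 7 and in 34.6% of all promoters, and TGACG in 4 of the 7 and in 24.6%.

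B2M, the light chain shared by all class I molecules, was the most abundant of the 9 genes and the only one without a call. It had 213, 260 and 256 CPM with DMSO and 238, 271 and 268 CPM with auxin, and the groups overlapped. Replicate 1 was the lowest library in both groups. The log2 fold change was 0.09 ± 0.10 SE (edgeR adjusted p = 0.459). Within same-numbered pairs, auxin was higher in 3 of 3, and with the replicate number as a block B2M was called higher (0.10, edgeR adjusted p = 0.0288). Without DMSO replicate 1 the value was 0.0083. The sign was not stable: it was -0.06 on log2(TPM + 1) with limma and -0.00 with the GC correction. B2M (ENSG00000166710.18) lies at chr15:44711487-44718877.

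The ratio of heavy chain to light chain TPM was 0.643, 0.534 and 0.535 with DMSO and 0.436, 0.348 and 0.360 with auxin. The groups did not overlap (two-sided exact permutation p = 0.1, the smallest possible, and 0.1 after adjustment over 9 ratios). A ratio within a library shows unequal change and not which of the 2 genes moved. Gene TPM here includes non-coding forms.

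TAP1 and TAP2, the 2 subunits of the peptide transporter, were both lower, TAP2 by more. TAP2 had 62.1, 58.5 and 62.1 CPM with DMSO and 26.8, 25.5 and 27.8 CPM with auxin (log2 fold change -1.19 ± 0.06 SE, edgeR adjusted p = 8.63e-06). TAP1 had 33.2, 33.7 and 35.8 CPM with DMSO and 28.1, 29.2 and 28.6 CPM with auxin (-0.26 ± 0.06 SE, edgeR adjusted p = 0.00776). Both had groups that did not overlap. They lie at chr6:32845209-32853978 (TAP1) and chr6:32821833-32838780 (TAP2), minus strand. TAP2 shares 2064 exonic bases with AL669918.1, a protein-coding gene on the same strand at 0.0215 CPM with DMSO and 0.0221 with auxin, which was not tested. TAP1 lost its call with upper-quartile factors (-0.14, edgeR adjusted p = 0.0633), and its sign turned with the GC correction (0.11, edgeR adjusted p = 0.375), while TAP2 was at -1.33 under that correction. The TPM of TAP2 over that of TAP1 was 0.702 ± 0.07 with DMSO and 0.415 ± 0.04 with auxin (SD, n = 3 each, exact permutation p = 0.1, the smallest possible).

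TAPBP, which encodes tapasin, was lower by almost as much as TAP2. It had 87.1, 89.5 and 91.4 CPM with DMSO and 45.9, 44.7 and 47.7 CPM with auxin. The spread within a group was small beside the gap (log2 fold change -0.96 ± 0.05 SE, edgeR adjusted p = 1.19e-05). TAPBP lies at chr6:33299694-33314387, minus strand. With the GC correction the value was -0.58 (edgeR adjusted p = 0.000934).

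NLRC5, the coactivator of class I genes, was scarce. It had 3.08, 2.18 and 2.42 CPM with DMSO and 1.13, 0.536 and 0.790 CPM with auxin. The auxin libraries were all lower, though they spread more than in the other genes (log2 fold change -1.63 ± 0.28 SE, edgeR adjusted p = 0.00233). It was not called on log2(TPM + 1) with limma (-0.52, adjusted p = 0.0807). NLRC5 (ENSG00000140853.15) lies at chr16:56989485-57083531, and the other 7 genes than B2M and NLRC5 lie on chromosome 6.

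**Figure D2:**
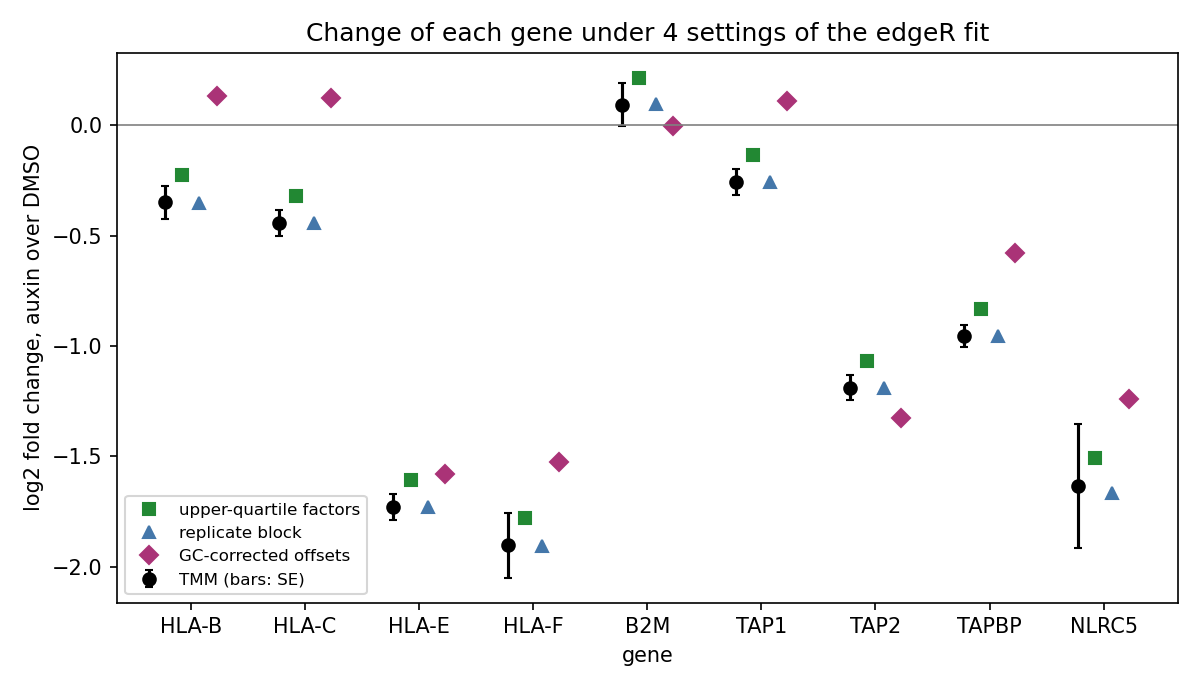
Log2 fold change, auxin over DMSO, of each gene under 4 settings of the edgeR fit: TMM with bars for 1 SE, upper-quartile factors, the replicate block and offsets corrected for GC content. HLA-B, HLA-C and TAP1 lie above 0 only under the GC correction, and 5 genes are lower under all 4 settings.

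The core of the interferon-stimulated response element (GAAA, any 2 bases, then GAAA) is shown in capitals where the 7 promoters hold it, with any class I interferon element that overlaps it. Searched on both strands, it was found in 5 of the 7 and in 3.57% of all promoters of that length. The windows of TAP1 and TAPBP, and part of those of HLA-F and TAP2, lie within exons of GENCODE transcripts of the gene.
HLA-F (chr6:29723268-29723297, plus strand): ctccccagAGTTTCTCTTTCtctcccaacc
TAP1 (chr6:32853819-32853848, minus strand): aggcggccgcTTTCGATTTCGCTTTCccct
TAP2 (chr6:32838778-32838807, minus strand): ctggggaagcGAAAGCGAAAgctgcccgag
TAPBP (chr6:33314079-33314108, minus strand): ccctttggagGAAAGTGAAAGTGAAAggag
B2M (chr15:44711358-44711397, plus strand): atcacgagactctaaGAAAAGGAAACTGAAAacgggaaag
B2M, which was not called, holds the core as well as 4 genes that were called lower.

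Levels between genes are compared in gene TPM, which is per transcript length and includes non-coding forms. With DMSO the order was B2M (326), HLA-C (97.2), HLA-B (61.2), HLA-E (26.9), TAPBP (26.0), TAP1 (16.3), TAP2 (11.5), HLA-F (2.65) and NLRC5 (1.38). The libraries of HLA-E overlapped those of TAPBP, and those of TAP1 overlapped those of TAP2. With auxin, B2M (312), HLA-C (65.6) and HLA-B (45.2) still led, followed by TAP1 (12.2), TAPBP (11.9), HLA-E (8.13), TAP2 (5.07), HLA-F (0.653) and NLRC5 (0.630). TAP1 overlapped TAPBP there, and HLA-F overlapped NLRC5.

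Transcripts were tested in the same way over 83072 transcripts, of which 11.2% were called lower and 8.43% higher. The 9 genes have 102 annotated transcripts, 56 were tested, 11 were called lower and 1 higher. Of the main coding transcripts, HLA-E-201 (-1.79 ± 0.08 SE, edgeR adjusted p = 0.000189), TAPBP-234 (-0.93), HLA-B-249 (-0.56) and HLA-C-201 (-0.49) were all called lower, as were HLA-F-217 (-1.97), HLA-F-224 (-1.91) and NLRC5-201 (-2.33). TAP1-201, the main coding form of TAP1, was not called (-0.25 ± 0.15 SE, edgeR adjusted p = 0.322), and neither was that of B2M, B2M-215 (0.12, edgeR adjusted p = 0.607). The NLRC5-201 call was lost without DMSO replicate 1, 2 or 3 or auxin replicate 3 (edgeR adjusted p up to 0.0727). NLRC5-215 was listed at 0 in all 3 auxin libraries and at 0.455, 0.162 and 0.225 CPM with DMSO.

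The 1 transcript called higher was TAP2-202, a coding form of TAP2 with another last exon. It made up 4.32%, 3.28% and 3.38% of TAP2 TPM with DMSO and 23.3%, 23.2% and 21.3% with auxin, and its CPM rose while that of the gene fell (log2 fold change 1.63 ± 0.18 SE, edgeR adjusted p = 0.00261). TAP2-201, the main form, went from 94.5% to 76.1% of the gene and was called lower (-1.32 ± 0.08 SE, edgeR adjusted p = 0.000394). The last exons are shown at the point where they part, since this is what tells the forms apart. Each run has 15 bases of the exon the forms share, in lower case, and then the first 15 bases of the last exon, in capitals, on the minus strand of GRCh38.
TAP2-201 (last exon chr6:32825415-32829034): cagtgcgagcaggccCTGCAGGACTGGAAT
TAP2-202 (last exon chr6:32821833-32822318): cagtgcgagcaggccAAAACCCTTTGGAAG
The 2 forms have 10 identical exons, and the last exon of TAP2-202 lies 3096 bases past the end of TAP2-201. Further along the same strand lies HLA-DOB (chr6:32812763-32820466), a class II gene, at 0.178, 0.216 and 0.191 CPM with DMSO and 1.11, 1.10 and 1.04 CPM with auxin (2.47 ± 0.15 SE, edgeR adjusted p = 2.12e-05). Whether transcription past the end of TAP2 has a part in either value was not tested.

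Retained-intron transcripts are annotated forms that keep an intron. Their share of gene TPM was above that of every DMSO library in every auxin library for 3 of the 8 genes that have such forms, beside 22% of all genes with such forms, and below in 1 of 8 (B2M), beside 7.2%. HLA-E had the largest difference of the 3: the share was 2.55%, 4.22% and 4.84% with DMSO and 14.1%, 19.0% and 22.8% with auxin (exact permutation p = 0.1, the smallest possible). As shares of expected counts in place of TPM, the HLA-E difference was 5.02 percentage points against 14.7. HLA-B had 42.1% ± 4.07 and 52.2% ± 4.64, and HLA-C 37.1% ± 2.89 and 41.4% ± 0.86, with DMSO and auxin (SD, n = 3 each). The HLA-C difference of 4.24 percentage points was 2.78 without DMSO replicate 3. Protein-coding shares were below in 4 of 9 genes, beside 16.8% of all genes, and above in 0, beside 8.07%. For HLA-B the highest auxin share was 53.1% against a lowest DMSO share of 53.3%, and for HLA-C 58.3% against 58.8%. The lowest coding share was that of NLRC5, at 28.1%, 28.9% and 29.1% with DMSO and 9.64%, 4.35% and 8.20% with auxin. As shares of expected counts its difference was -33.1 percentage points against -21.3. The TPM behind the NLRC5 coding share was 0.57, 0.28 and 0.34 with DMSO. With auxin it was 0.08, 0.02 and 0.05, so those shares rest on values near 0.

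The higher HLA-E share stood beside a lower spliced form. In CPM, the retained-intron form HLA-E-203 had 0.309, 0.727 and 0.809 with DMSO and 0.694, 1.10 and 1.41 with auxin, and these overlapped (0.80 ± 0.45 SE, edgeR adjusted p = 0.283). With the replicate number as a block it was called higher (0.86, edgeR adjusted p = 0.0408). The intron it keeps is printed, with those kept by the HLA-B and HLA-C forms, because they are short and rich in G and C. The HLA-B form, HLA-B-253, had 14.7, 11.8 and 11.9 CPM with DMSO and 14.0, 11.9 and 11.1 with auxin. Its share of HLA-B TPM overlapped between the groups. The HLA-C form, HLA-C-205, had 21.3, 19.3 and 17.8 CPM with DMSO and 17.0, 16.1 and 16.1 with auxin. Its share of HLA-C TPM was higher in every auxin library. Neither form was called, so the higher class shares of HLA-B and HLA-C do not show more RNA that keeps these introns. Capitals mark the intron, and 10 exonic bases stand on either side.
HLA-E intron 1 (chr6:30489596-30489725, plus strand): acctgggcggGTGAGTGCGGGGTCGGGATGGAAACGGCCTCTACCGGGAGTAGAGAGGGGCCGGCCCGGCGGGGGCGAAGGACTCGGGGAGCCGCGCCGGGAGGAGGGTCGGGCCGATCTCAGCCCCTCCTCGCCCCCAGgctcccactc
HLA-B intron 6 (chr6:31354527-31354632, minus strand): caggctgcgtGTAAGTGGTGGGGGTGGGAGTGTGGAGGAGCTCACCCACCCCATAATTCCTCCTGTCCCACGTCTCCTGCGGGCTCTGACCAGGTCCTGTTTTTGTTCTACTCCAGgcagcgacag
HLA-C intron 6 (chr6:31269386-31269492, minus strand): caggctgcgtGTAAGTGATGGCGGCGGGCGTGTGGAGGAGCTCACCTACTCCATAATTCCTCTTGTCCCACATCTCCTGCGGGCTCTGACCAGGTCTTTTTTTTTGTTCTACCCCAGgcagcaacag
The introns are 130, 106 and 107 bases long, with 75.4%, 58.5% and 54.2% GC, and each begins with GT and ends with AG.

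**Figure D3:**
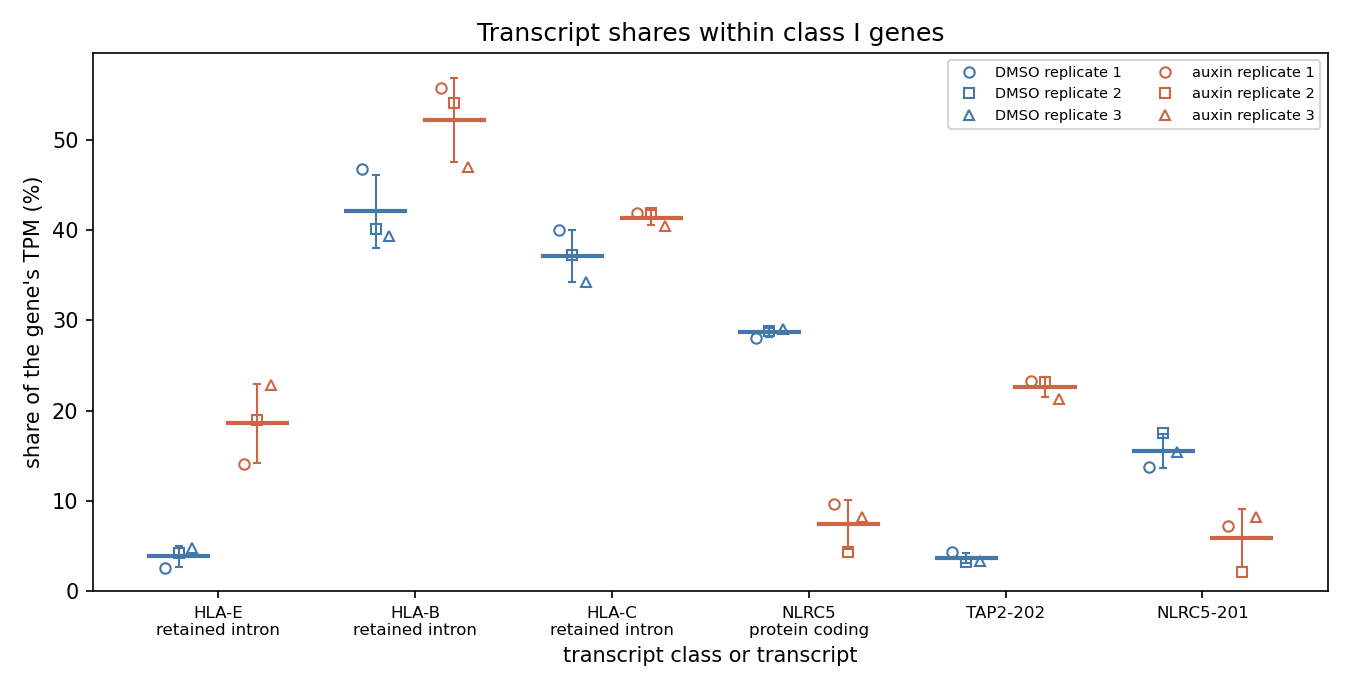
Share of a gene's TPM (%) in a transcript class or single transcript, by library, with DMSO in blue and auxin in orange. Symbols mark replicates, horizontal bars the mean and vertical bars the SD of 3 libraries. HLA-E retained-intron forms and TAP2-202 lie higher with auxin, and the coding share of NLRC5 lower.

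Gene structure was taken from the longest annotated coding transcript of each gene. For HLA-C, HLA-F and B2M the coding transcript with the largest share of TPM was another one, and with it all 9 genes stayed in the same GC and intron quartiles. Of 14145 tested protein-coding genes, 33.4% were called lower, with a median log2 fold change of -0.01. Among genes in both the highest GC quartile and the shortest intron quartile (1890 genes), 74.9% were called lower and the median was -1.39. HLA-B, HLA-C, HLA-F, TAP1 and TAPBP fall in that class, and of these only HLA-F was below its median. HLA-B (-0.35), HLA-C (-0.44) and TAP1 (-0.26) were above its upper quartile of -0.54. HLA-E is in GC quartile 3 and intron quartile 1, where the median was -0.61 and 58.6% were lower, and its -1.73 was below that. TAP2 had 49.1% GC, in GC quartile 2, where the median log2 fold change was 0.19 and 18.4% were lower. Its median intron of 365 bases is in intron quartile 1 (median log2 fold change -0.86, 62.2% lower). NLRC5 had 58.0% GC, in GC quartile 4 (median log2 fold change -0.75, 58.8% lower). Its median intron of 1041 bases is in intron quartile 2 (median log2 fold change 0.002, 32.0% lower). B2M had 39.4% GC and a median intron of 1250 bases, so it is neither GC-rich nor of short introns. These values stand beside the sign changes under the GC correction, which also removes any group difference that genes of like GC share. The part of GC content in the changes was not tested.

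**Figure D4:**
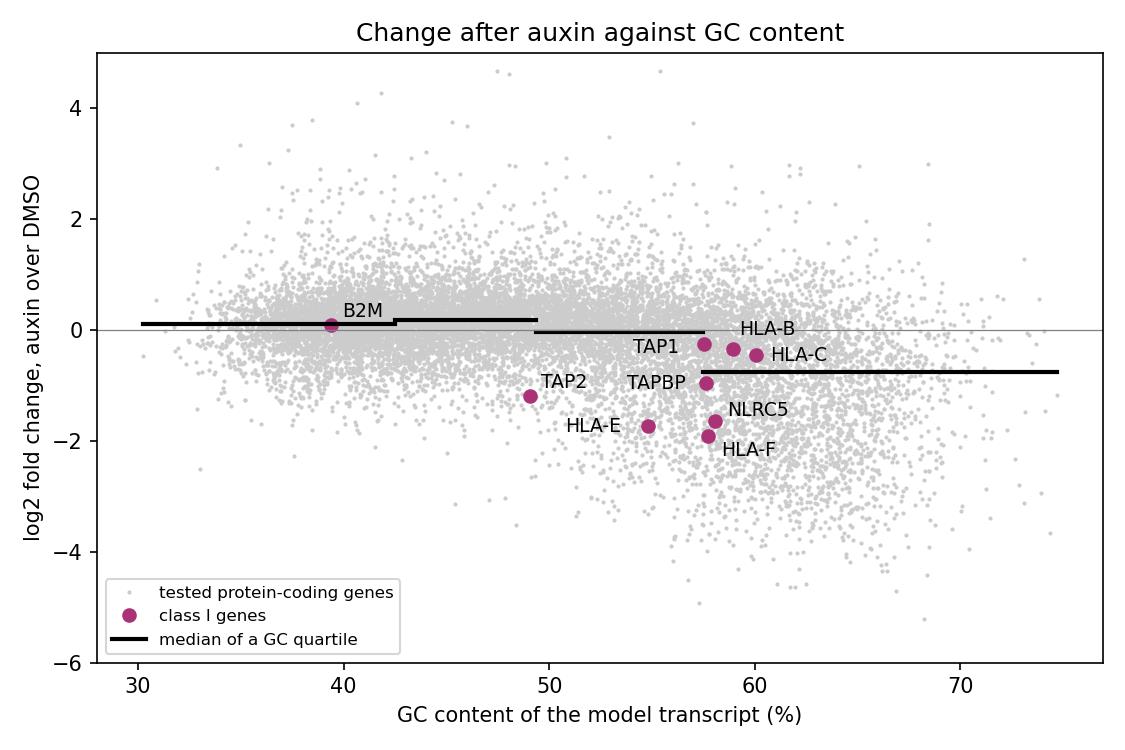
Log2 fold change, auxin over DMSO, against the GC content (%) of the longest coding transcript for 14145 protein-coding genes, in grey, with the 9 class I genes named. Black lines mark the median of each GC quartile, which falls to -0.75 in the highest. 4 genes lie beyond the y axis.

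The 7 genes on chromosome 6 span chr6:29722775-33314387, from HLA-F to TAPBP. Among 107 other protein-coding genes tested there, 62 (57.9%) were called lower and 11 (10.3%) higher, with a median log2 fold change of -0.56, beside 33.4%, 27.8% and -0.01 over all coding genes. PSMB9, an immunoproteasome gene on the opposite strand whose annotated span contains that of TAP1, shares 0 exonic bases with it. PSMB9 had 2.45 CPM with DMSO and 1.81 with auxin and was not called (-0.44 ± 0.27 SE, edgeR adjusted p = 0.207). BRD2, a bromodomain gene of the same region, was called higher (0.44 ± 0.07 SE, edgeR adjusted p = 0.00191).

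Other genes of the pathway were read in 8 lists with 64 genes, of which 63 were tested. Of these, 23 were called lower (36.5%, beside 26.9% of all genes and 33.4% of protein-coding genes). Another 16 were called higher (25.4%, the share of all genes, beside 27.8% of protein-coding genes) and 24 were not called. With limma on log2(TPM + 1), 14 were called lower and 2 higher, and of the genes named below CALR, ERAP1, PSME1, PSMB5, NFYC, SUZ12, IFNGR2, SOCS1, RAET1E and RAET1L were not called. Without DMSO replicate 2, auxin replicate 2 or auxin replicate 3 the number higher was 10. In peptide loading and trimming, 3 of 9 were lower and 1 was higher. The aminopeptidase ERAP2 (-1.22 ± 0.15 SE), the glucosidase subunit GANAB (-0.65 ± 0.09 SE) and the chaperone calreticulin (CALR, -0.40 ± 0.10 SE) were the 3 that fell. ERAP1 was called higher (0.26 ± 0.07 SE), though its sign turned on the TPM scale with limma (-0.14). The ERAP1 call was lost without DMSO replicate 1 or 2 or auxin replicate 2 or 3 (edgeR adjusted p from 0.053 to 0.0668). With the replicate number as a block, 4 of this list were called higher.

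Of 6 immunoproteasome and activator genes, 3 were lower and 0 higher, beside 26.9% and 25.4% of all genes. PSMB10, a catalytic subunit of the immunoproteasome, had 4.08, 3.06 and 3.51 CPM with DMSO and 1.11, 1.08 and 1.14 CPM with auxin (-1.68 ± 0.14 SE, edgeR adjusted p = 6.94e-05). The activator subunit PSME2 was at -0.96 ± 0.12 SE, and its partner PSME1 at -0.20 ± 0.07 SE with a call that was lost with upper-quartile factors (edgeR adjusted p = 0.32), and also without DMSO replicate 2 or 3 or any 1 auxin library (0.0767 to 0.118). Of the constitutive catalytic subunits, PSMB5 was higher (0.30 ± 0.08 SE), PSMB6 lower (-0.36 ± 0.09 SE) and PSMB7 not called (0.23 ± 0.11 SE). PSMB7 was called higher with the replicate number as a block (edgeR adjusted p = 0.000241), with upper-quartile factors (0.0166) and without auxin replicate 1 (0.31, 0.0375), and it was at 0.15 without DMSO replicate 1 and 0.13 without auxin replicate 3. PSMB5 lost its call without DMSO replicate 1 or 2 or auxin replicate 2 or 3 (edgeR adjusted p from 0.0593 to 0.0803), and PSMB6 with the GC correction (0.135). The number higher among the 3 was 0 to 2 with 1 library left out.

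Of 13 transcriptional regulators, 7 were lower and 4 higher, beside 26.9% and 25.4% of all genes. The number of regulators called higher was 2 without auxin replicate 2 or 3. RFXANK, a subunit of the RFX complex that binds class I and class II promoters, had the largest change of the regulators, from 8.56, 8.09 and 8.56 CPM to 1.14, 0.941 and 0.826 CPM (-3.11 ± 0.14 SE, edgeR adjusted p = 6.52e-06). Its partner RFX5 was at -0.35 and RFXAP was not called (-0.11 ± 0.16 SE). IRF1, an interferon regulatory factor, had 13.5, 12.3 and 13.7 CPM with DMSO and 4.57, 3.65 and 3.49 CPM with auxin (-1.75 ± 0.12 SE, edgeR adjusted p = 3.66e-05), and IRF2 was at -0.96 ± 0.09 SE. NFYC, a subunit of the factor that binds CCAAT, rose (0.82 ± 0.09 SE).

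Polycomb repressive complex 2 represses class I genes in some tumours. Its 3 genes were all called lower, beside 26.9% of all genes: EZH2 (-0.75 ± 0.07 SE), EED (-0.45 ± 0.15 SE) and SUZ12 (-0.17 ± 0.06 SE). EED and SUZ12 lost their calls with upper-quartile factors (edgeR adjusted p = 0.0715 and 0.396). The SUZ12 call was also lost without any 1 of the 6 libraries (edgeR adjusted p from 0.0648 to 0.138), and the EED call without DMSO replicate 2 or 3 or auxin replicate 1 or 2 (0.076 to 0.107), so that 1 or 2 of the 3 genes were called lower with a library left out. Of the interferon gamma receptor genes and kinases, JAK2 was lower (-0.93 ± 0.08 SE), IFNGR2 (0.35 ± 0.06 SE) and the feedback inhibitor SOCS1 (0.86 ± 0.26 SE) were higher, and IFNGR1 (0.22 ± 0.09 SE) and JAK1 (-0.02 ± 0.07 SE) were not called. IFNGR1 was called higher with the replicate number as a block (edgeR adjusted p = 0.000332), with upper-quartile factors (0.00985) and without auxin replicate 1 (0.0364), and without DMSO replicate 1 its value was 0.14. JAK1 was called lower with the GC correction (-0.19, edgeR adjusted p = 0.0375). SOCS1 lost its call without DMSO replicate 2 or 3 (0.70 and 0.79) or auxin replicate 1 (0.56, edgeR adjusted p = 0.0534), and was at 1.89 with the GC correction.

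Among 13 other class I-like genes and ligands of natural killer cell receptors, 5 were lower and 5 higher, beside 26.9% and 25.4% of all genes. The stress ligands MICA (-1.21 ± 0.08 SE) and MICB (-1.10 ± 0.05 SE), which also lie in the region, were lower, from means of 28.3 and 65.1 CPM to 12.2 and 30.4 CPM. RAET1E (1.11 ± 0.10 SE) and RAET1L (1.01 ± 0.13 SE), further ligands of the same receptor, were higher. MHC class II genes were scarce throughout: their summed level was 3.86 to 4.24 CPM with DMSO and 5.29 to 5.93 CPM with auxin. Of these, 3 of 11 tested were higher, beside 25.4% of all genes, and 0 were lower, beside 26.9%. In this list 1 was lower without auxin replicate 1 or with the replicate number as a block.

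**Figure D5:**
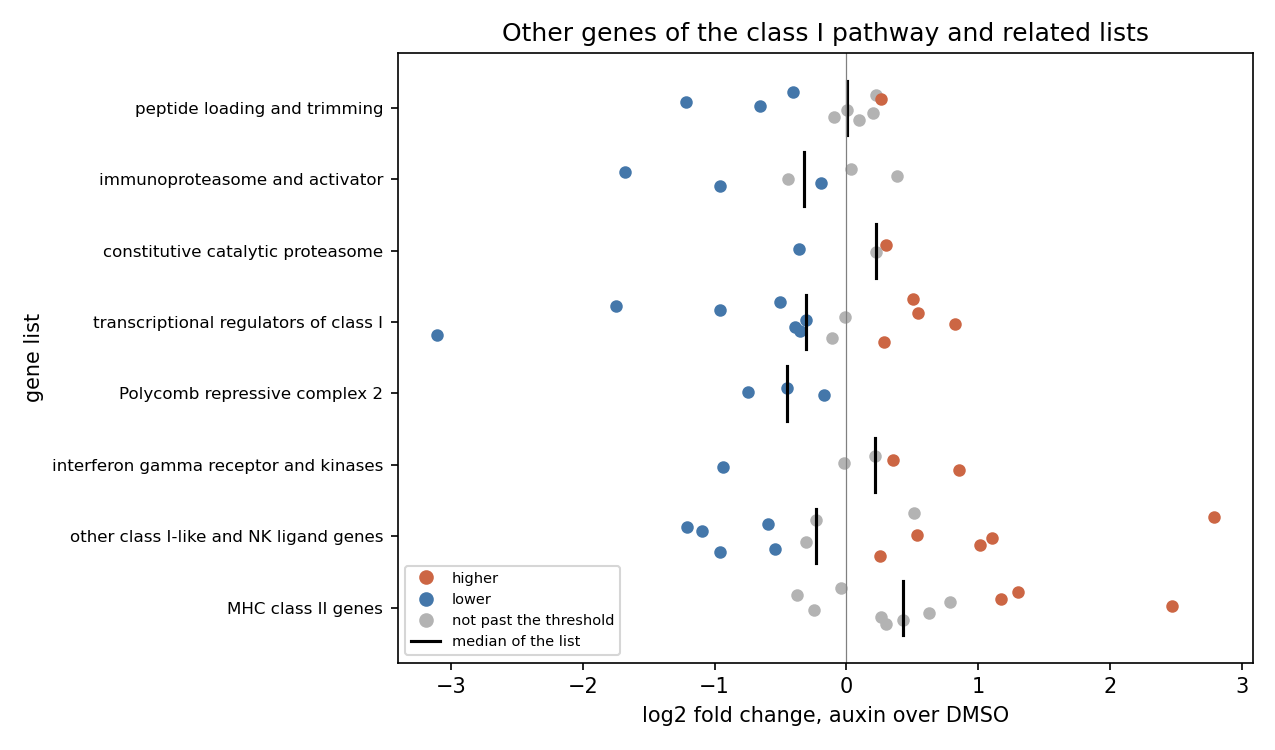
Log2 fold change, auxin over DMSO, of the genes in the 8 lists, with 1 point per gene and black lines at the list medians. Orange marks genes called higher, blue genes called lower and grey genes without a call. The lists hold genes on both sides of 0 except Polycomb repressive complex 2.

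Likeness to the summed heavy chains was Pearson's r of log2(CPM + 0.5) over 6 libraries. It was taken among 11715 protein-coding genes with a mean of at least 1 CPM, members and HLA genes left out. The 5 most alike genes were GFI1, VPS52, FAHD2B, TM9SF4 and METTL3, with r from 0.9995 to 0.9999. Their log2 fold changes ran from -1.11 for GFI1 to -1.81 for METTL3. With 2 groups of 3 libraries, r mostly restates the difference between the groups.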

How the data were processed

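RNA was measured in 6 libraries, 3 of auxin-treated and 3 of DMSO-treated HCT116 cells. Libraries were stranded, paired-end and made from rRNA-depleted total RNA, per the labels' protocols. The submitters' processing notes name bcl2fastq 2.20, STAR, DESeq2 and GRCh38, with no role or order. The counting tool, the annotation and the use of strand are not given in the sources used here. The authors deposited expected counts, which are estimated and not normalized, and TPM, per the file headers. All 58780 human gene IDs matched GENCODE 29 with their versions.

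Expected counts were rounded and tested with edgeR 4.0.16 (R 4.3.3, filterByExpr, TMM, glmQLFit and glmQLFTest, Benjamini-Hochberg over all features, threshold 0.05), and the test was tested on simulated data. In that simulation of auxin against DMSO, 200 of 83072 transcripts were changed, far fewer than were called in the data. There 0% of 1.5-fold, 0% of 2-fold and 18% of 8-fold changes were recovered. With fewer changes the adjustment is stricter, so these shares do not measure the power of the test here. With 200 of 19725 genes changed, 34.3%, 68.8% and 98.5% were recovered. A transcript without a call is still not shown to be unchanged. Alternatives were other scalings and filters, DESeq2 1.42.0, limma 3.58.1 on log2(TPM + 1) and log2(TPM + 0.1), a replicate block, offsets corrected for the GC content of the longest coding transcript (lowess, span 0.3) and leaving out libraries. The GC trend was fitted in each library on the deviation from the gene's mean over both groups. It therefore takes out a change after auxin that genes of like GC share. Ratios and shares of TPM had two-sided exact permutation tests. P-values measure the spread between these cultures of 1 cell line. Same-numbered libraries deviated together (correlations of 0.607 to 0.861), which is the source of the pairing, a hint from the data that the labels do not state. DMSO replicate 3 with auxin replicate 2 also reached 0.607, and DMSO replicate 2 with auxin replicate 3 was at 0.398. The correlations thus set replicate 1 apart from replicates 2 and 3 and do not show how 2 and 3 pair.

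The members and lists were chosen with earlier results of these data known. Named were all 9 genes, up to 4 called genes per list with the largest change and at least 1 CPM, all genes of lists of 5 or fewer, called transcripts of at least 5% of a gene, and the 5 most alike genes. PSMB9, BRD2, HLA-DOB, RFX5, RFXAP, HLA-F-AS1, HLA-E-203, HLA-B-253 and HLA-C-205 fall outside this rule and were chosen after their values were seen. A gene of the lists is counted there and not reported here by name.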

Additional observations from a re-analysis of the deposited data

How the results depend on the processing

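With 3 libraries a group, the scarce genes NLRC5 and HLA-F had SEs of 0.28 and 0.15. Of the 9 genes' values under alternatives, 132 kept direction and side of the threshold, 10 lost the call, 1 gained it and 10 turned sign. Members called lower stayed at 8 when any 1 library was left out, and were 6 with upper-quartile factors, 4 under both limma fits on log2(TPM) and 5 with GC-corrected offsets, with or without the replicate block. Members called higher were 1 with the replicate block and 2 with the block and GC correction. The cause was not tested.

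Under limma on log2(TPM + 1) and log2(TPM + 0.1), all genes called lower were 2966 and 3223 and higher 969 and 1017, pathway genes lower 14 and 14 and higher 2 and 3, and region genes higher 5 and 4. Region genes lower were 44 on log2(TPM + 1), and region genes higher were 27 with the block and GC correction. The summed heavy chains were at -0.64 and -0.64 (adjusted p of 0.0653 and 0.0579). Pathway genes called higher ranged from 10 to 17 with 1 library left out. Member transcripts called lower were 19 with DESeq2, and those called higher 2 with DESeq2, upper-quartile factors or the replicate block.

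Values that turned sign were HLA-B (0.13 with GC correction and 0.13 with the block as well), HLA-C (0.12 and 0.13), TAP1 (0.11 and 0.11), B2M (-0.00198 and -0.000194, and -0.0597 and -0.0599 under the limma fits), ERAP1 (-0.14 and -0.17 under the limma fits) and JAK1 (0.11 with upper-quartile factors and -0.052 to 0.038 with 1 library left out). The replicate block changed the calls of B2M, HLA-E-203, PSMB7 and IFNGR1 and of no other gene or transcript whose alternatives were computed by name.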
